A study of Mus musculus with 7 samples.

Results

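The adult haemoglobin genes and the gene for the haem enzyme of red cells were followed in 7 mouse mammary tumour libraries. They were taken as a rough record of the blood RNA in each tumour sample. Whether they follow blood content was not tested. The members were the entries of the deposited gene table whose identifier, with its version dropped, maps to Hba-a1, Hba-a2, Hbb-bs, Hbb-bt or Alas2, which gave 5 of 55487 genes. The rule itself uses no measured values, though the members were chosen with earlier results of these data known.

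The tumours grew from luciferase-carrying 4T1-12b(luc) cells, a transfected mouse mammary carcinoma line, in mammary fat pads of BALB/c hosts, labelled as genotype WT. From about 150 mm3 they received 6 intratumoural injections of 50 µl, given every other day, and all libraries carry the label day 12. The TIS sEV group (3 libraries) received small extracellular vesicles of 4T1 cells made senescent by 72 h in nocodazole at 100 ng/ml, an agent that keeps microtubules from forming. The Cont sEV group (1 library) received vesicles of 4T1 cells kept in DMSO for the same time, the Saline group (3 libraries) received saline, and both kinds of donor cell were released for 72 h before vesicle collection. Whether replicates were separate animals was not stated, so a p-value here reflects the spread among these libraries alone, and that spread may be technical.

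Haemoglobin carries oxygen in red cells as a tetramer of alpha and beta chains, each holding a haem group. Mouse red cells lose their nucleus late in maturation, and young red cells, the reticulocytes, still carry globin mRNA, so globin RNA in a solid tissue usually arrives with its blood. Hba-a1 and Hba-a2 encode adult alpha chains, Hbb-bs and Hbb-bt encode adult beta chains, and Alas2 encodes the red cell form of the enzyme that starts haem synthesis.

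In the C57BL/6J reference the alpha pair and the beta pair are near-identical copies, and the stretches below show how little separates their coding parts there. The single base at which the members of a pair differ is in capitals. Each window is 60 coding bases read 5′ to 3′ along the gene's strand, from GENCODE M21 gene models on GRCm38, and lies in the last exon.
Hba-a1, chr11:32284313-32284372 (+): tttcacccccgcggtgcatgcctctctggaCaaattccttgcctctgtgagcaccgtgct
Hba-a2, chr11:32297130-32297189 (+): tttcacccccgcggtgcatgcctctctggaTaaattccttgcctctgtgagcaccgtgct
Hbb-bs, chr7:103826668-103826727 (-): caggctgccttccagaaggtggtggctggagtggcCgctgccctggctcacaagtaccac
Hbb-bt, chr7:103812659-103812718 (-): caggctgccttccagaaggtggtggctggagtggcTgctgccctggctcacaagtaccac
These were the only coding differences in the reference, where each pair encoded 1 protein sequence. Hba-a1 (chr11:32283511-32284465) and Hba-a2 (chr11:32296489-32297298) each have 3 exons and 426 coding bases without the stop codon. Their transcripts shared 477 stretches of 31 bases, which is 71.3% of those in Hba-a1 and 91.0% of those in Hba-a2. Hbb-bs (chr7:103826534-103828096) and Hbb-bt (chr7:103812524-103813996), with 3 exons and 441 coding bases each, shared 400 such stretches, 58.7% of those in Hbb-bs and 59.4% of those in Hbb-bt. Alpha and beta transcripts shared 0. The split within each pair is therefore uncertain, while alpha and beta totals do not compete for the same reads by this measure. As background, BALB/c mice carry another beta-globin haplotype than the C57BL/6J reference, so the beta stretches printed above need not be those of the hosts. This adds doubt to the levels of Hbb-bs and Hbb-bt, to their sum and to their split. How well the reads of the hosts match the reference was not tested. Alas2 (chrX:150547375-150570638, 11 exons) is a single gene on the X chromosome.

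The promoters are shown because the 4 globin genes vary together over the libraries, as described further on, with that of Alas2, which follows them less closely, for comparison. Each window holds the 150 bases before the RefSeq start on GRCm38.p6, 5′ to 3′ along the gene's strand. Capitals mark the box CCAAT, the TATA-type motif ATATAA, the box CACCC and the GATA-type motif GATAA, found by script on either strand. A match on the other strand stands as its reverse complement, for example GGGTG for the box CACCC, and no printed matches overlap.
Hba-a2, chr11:32296342-32296491 (+): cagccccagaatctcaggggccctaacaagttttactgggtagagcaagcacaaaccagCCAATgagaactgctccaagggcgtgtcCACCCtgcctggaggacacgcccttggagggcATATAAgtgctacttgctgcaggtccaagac
Hbb-bs, chr7:103827929-103828078 (-): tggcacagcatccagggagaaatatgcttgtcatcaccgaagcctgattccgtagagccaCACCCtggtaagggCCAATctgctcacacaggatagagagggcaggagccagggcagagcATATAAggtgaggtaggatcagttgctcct
Hbb-bt, chr7:103813924-103814073 (-): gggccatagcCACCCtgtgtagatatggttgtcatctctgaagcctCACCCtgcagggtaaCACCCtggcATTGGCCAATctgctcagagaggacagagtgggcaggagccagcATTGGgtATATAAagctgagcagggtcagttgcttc
Alas2, chrX:150547267-150547416 (+): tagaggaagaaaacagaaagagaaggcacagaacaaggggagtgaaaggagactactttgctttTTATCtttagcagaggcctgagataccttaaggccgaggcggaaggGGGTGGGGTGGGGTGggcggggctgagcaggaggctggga
The window of Hba-a1 is not printed, since the RefSeq promoters of both alpha genes were the same over 297 bases. GENCODE M21 starts all 5 genes upstream of the RefSeq starts used here, so each window lies in part or whole inside the GENCODE gene. The windows of Hba-a1 and Hbb-bs lie inside it whole, that of Hbb-bt from within its proximal CCAAT box on, with the ATATAA motif, and that of Hba-a2 only with its last 3 bases. All 4 globin promoters held the CCAAT box, the CACCC box and the motif ATATAA, with 1 of each in Hba-a1, Hba-a2 and Hbb-bs. Hbb-bt held 3 CCAAT, 3 CACCC and 1 ATATAA, and Alas2 held 3 CACCC and 1 GATAA but no CCAAT or ATATAA in these letters. Among 32851 RefSeq promoters cut to the same window, 24.5% held CCAAT, 37.4% CACCC, 5.35% ATATAA and 13.3% GATAA. The 3 motifs of the globin promoters occurred together in 0.423% of those promoters. A match describes the letters only, and whether these motifs bear on how the genes vary over the libraries was not tested.

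Expression was given as TPM, a length-corrected share of each library's transcripts scaled to a fixed total, with no record of depth. Nuclear protein-coding genes took 64.8%, 28.6% and 63.6% of all TPM in TIS sEV replicates 1, 2 and 3, 73.8% in Cont sEV, and 56.8%, 73.7% and 74.7% in Saline replicates 1, 2 and 3. In TIS sEV replicate 2 only 8909 genes reached 1 TPM, where the other 6 libraries had 11378 to 12328. It stands apart, and its values on the TPM scale are low for most coding genes. Over all tested genes the median log2 difference of TIS sEV against Saline was -0.62, and differences of members are read against that shift.

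All members were low or moderate in every tumour and differed more among replicates than between groups. The alpha gene Hba-a2 stood at 9.44, 28.4 and 70.1 TPM in TIS sEV replicates 1, 2 and 3, at 26.2 TPM in Cont sEV, and at 23.9, 88.7 and 50.2 TPM in Saline replicates 1, 2 and 3. TIS sEV replicate 1 was the lowest library and Saline replicate 2 the highest, and TIS sEV replicate 3 lay between the upper pair of Saline libraries, so the groups overlapped. In bulk tissue, fewer red cells and less RNA per red cell cannot be told apart. The TIS sEV mean was 36.0 ± 31.03 TPM and the Saline mean 54.3 ± 32.6 TPM (SD, n = 3 each).

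Its partner Hba-a1 read 5.24, 18.2 and 48.6 TPM in the TIS sEV libraries, 17.5 TPM in Cont sEV and 14.996, 56.0 and 28.7 TPM in the Saline libraries. The libraries stood in the same order as for Hba-a2, with the lowest and highest values again in TIS sEV replicate 1 and Saline replicate 2, and the groups overlapped. Group means were 24.0 ± 22.3 TPM with TIS sEV and 33.2 ± 20.8 TPM with saline (SD, n = 3 each).

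Hbb-bs was the highest member in all 7 libraries. It read 11.6, 31.7 and 83.9 TPM in the TIS sEV libraries, 39.3 TPM in Cont sEV and 48.8, 212 and 73.5 TPM in the Saline libraries. The first 2 TIS sEV libraries lay below every Saline library, but TIS sEV replicate 3 lay above Saline replicates 1 and 3. The means were 42.4 ± 37.3 TPM with TIS sEV and 112 ± 88.2 TPM with saline (SD, n = 3 each). Within its library, Hbb-bs ranked 5383, 1063 and 989 among all genes by TPM in the TIS sEV libraries, 1994 in Cont sEV, and 1422, 461 and 1382 in the Saline libraries.

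The second beta gene, Hbb-bt, was the lowest of the globin members, with 0.446, 2.48 and 6.46 TPM in the TIS sEV libraries, 2.31 TPM in Cont sEV and 2.71, 10.99 and 2.87 TPM in the Saline libraries. It averaged 3.13 ± 3.06 TPM with TIS sEV and 5.52 ± 4.73 TPM with saline (SD, n = 3 each), and the groups overlapped. Over the 7 libraries the highest value exceeded the lowest 10.7-fold for Hba-a1, 9.40-fold for Hba-a2, 18.3-fold for Hbb-bs and 24.6-fold for Hbb-bt.

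Alas2 was near the bottom of the scale. Its listed values were 0, 0.252 and 1.16 TPM with TIS sEV, 0.594 TPM with Cont sEV and 0.896, 0.249 and 0.527 TPM with saline. Only TIS sEV replicate 3 passed 1 TPM, so Alas2 was left out of the test, and 4 of the 5 members were tested. The library with the highest haemoglobin, Saline replicate 2, was the second lowest for Alas2.

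**Figure D1:**
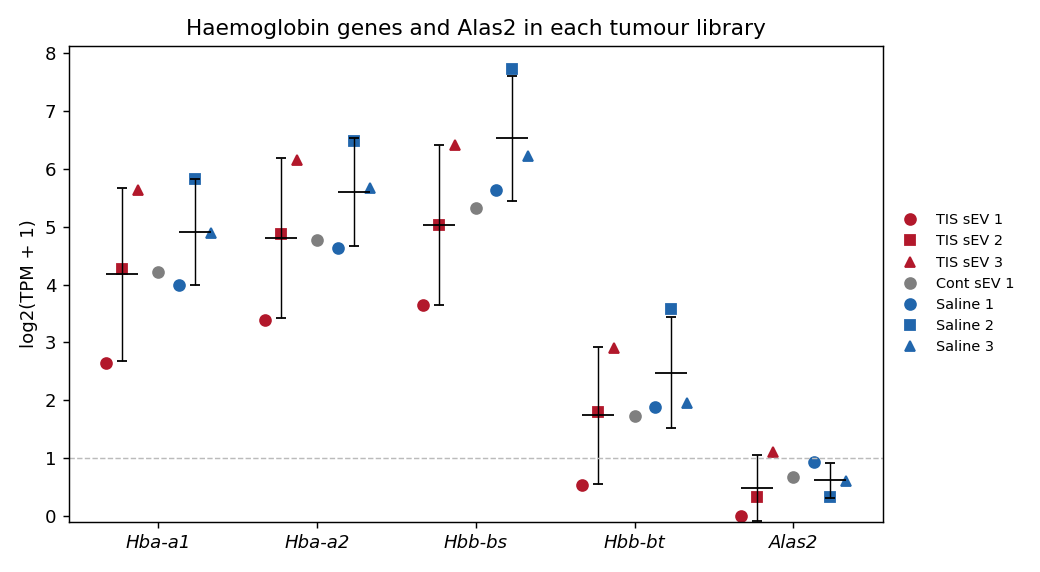
Level of each member in each library as log2(TPM + 1), with TIS sEV, Cont sEV and Saline side by side from left to right for each gene; points are libraries, black bars the mean ± SD of the log2 values of the TIS sEV and Saline groups, and the dashed line 1 TPM. The 4 globin genes repeat one pattern, lowest in TIS sEV replicate 1 and highest in Saline replicate 2, and Alas2 lies at or under 1.16 TPM.

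The question for the design was whether haemoglobin RNA in the tumours differed between the treatments. No tested member differed beyond the spread in limma's test on log2(TPM + 1) with Benjamini-Hochberg adjustment over 12058 genes. Between TIS sEV and Saline, 0 of 4 members passed an adjusted p of 0.05, where 0.514% of all tested genes passed. An unadjusted p under 0.05 was found for 1 member, Hbb-bs, and for 1245 of all 12058 tested genes. In limma, Hba-a1 differed by -0.73 (SE 0.65, 95% interval -2.01 to 0.55, adjusted p = 0.534) and Hba-a2 by -0.80 (SE 0.65, -2.07 to 0.47, adjusted p = 0.509). Hbb-bt differed by -0.73 (SE 0.55, -1.82 to 0.35, limma adjusted p = 0.498). These 3 lay within 0.18 log2 units of the median gene, at -0.11, -0.18 and -0.12 relative to it. The median of the 4 members was -0.77, beside -0.62 over all tested genes.

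Hbb-bs had the lowest difference of the members. It differed by -1.50 (SE 0.64, 95% interval -2.75 to -0.25, limma adjusted p = 0.470, unadjusted p = 0.0191), or -0.88 relative to the median gene. The intervals use the spread that limma fitted for genes of like level, because a gene's own spread had no weight in this fit. The own residual SD of the members on the log2 scale was larger, at 1.24, 1.18, 1.24 and 1.08 for Hba-a1, Hba-a2, Hbb-bs and Hbb-bt, against fitted values of 0.800, 0.793, 0.784 and 0.676. Exact two-sided permutation tests of TIS sEV against Saline, which use only the gene's own values and cannot go below 0.1 with these groups, gave p = 0.6 for Hba-a1, 0.5 for Hba-a2, 0.3 for Hbb-bs, 0.4 for Hbb-bt and 0.8 for Alas2. In 0 of the 4 tested members did the groups separate without overlap, where 14.3% of all tested genes did.

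One library decided whether Hbb-bs passed. Without TIS sEV replicate 2, the library low in coding RNA, its difference was again -1.50 but with SE 0.37, and it passed limma's test as lower with TIS sEV (adjusted p = 0.00955), where 0.751% of genes passed. That fit gave it a spread of 0.407 (log2) against its own 1.43, the groups still overlapped, and an exact permutation test of the 2 remaining TIS sEV libraries against the 3 Saline libraries gave p = 0.6. Leaving out other libraries moved the difference of Hbb-bs without a call, to -0.81 without TIS sEV replicate 1, -0.90 without Saline replicate 2 and -2.19 without TIS sEV replicate 3. No other member passed without TIS sEV replicate 2, with log2 differences of -0.77, -0.83 and -0.76 for Hba-a1, Hba-a2 and Hbb-bt.

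Scaling moved the members as a group. When TPM was divided by median-of-ratios size factors, the TIS sEV to Saline log2 differences were 0.020 for Hba-a1, -0.046 for Hba-a2, -0.75 for Hbb-bs and -0.070 for Hbb-bt, with limma adjusted p of 0.655 to 0.992. On that scale the alpha genes and Hbb-bt sat next to 0, and the sign of Hba-a1 was the opposite of that on the TPM scale.

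Against the lone Cont sEV library, which was assumed to vary like the other groups, the members were also not separated. In TIS sEV against Cont sEV the log2 differences were -0.033 for Hba-a1, 0.040 for Hba-a2, -0.30 for Hbb-bs and 0.015 for Hbb-bt, with SE of 0.78 to 0.92. Of the 4 members, 0 passed in limma and 0 had an unadjusted p under 0.05, where 0.224% of genes passed. The 95% interval of Hbb-bs ran from -2.08 to 1.47, so sizeable changes either way lie inside it. In Cont sEV against Saline the differences were -0.70, -0.84, -1.20 and -0.75 for Hba-a1, Hba-a2, Hbb-bs and Hbb-bt (SE 0.78 to 0.92), again with 0 passing and 0 at an unadjusted p under 0.05, where 0.207% of genes passed. The median gene differed by -0.29 in the first of these comparisons and by -0.33 in the second. The 3 comparisons share libraries and are not independent of each other.

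Summed over the 4 globin genes, haemoglobin RNA came to 26.7, 80.8 and 209 TPM in TIS sEV replicates 1, 2 and 3, to 85.3 TPM in Cont sEV and to 90.4, 368 and 155 TPM in Saline replicates 1, 2 and 3. The spread was 7.83-fold among TIS sEV libraries, 4.07-fold among Saline libraries and 13.8-fold over all 7. The group means, 105 ± 93.6 TPM with TIS sEV and 205 ± 145 TPM with saline (SD, n = 3 each), stood at a ratio of 0.516, and the values of the groups overlapped. Haemoglobin made up 0.00267% to 0.0209% of TPM with TIS sEV, 0.00853% with Cont sEV and 0.00904% to 0.0368% with saline.

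The order of the libraries depended on the scaling, most of all for TIS sEV replicate 2. With size factors the sums were 21.2, 216 and 207 in the TIS sEV libraries, 85.6 in Cont sEV and 88.2, 243 and 105 in the Saline libraries, all in scaled TPM. TIS sEV replicate 2 held the second-highest sum on that scale. The means were 148 ± 110 with TIS sEV and 145 ± 84.9 with saline, a ratio of 1.02. With nuclear coding genes scaled to the same TPM total in every library, the sums were 41.2, 283 and 328 in the TIS sEV libraries, 116 in Cont sEV and 159, 499 and 208 in the Saline libraries, a ratio of group means of 0.753. Under all 3 scalings TIS sEV replicate 1 was lowest and Saline replicate 2 highest.

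**Figure D2:**
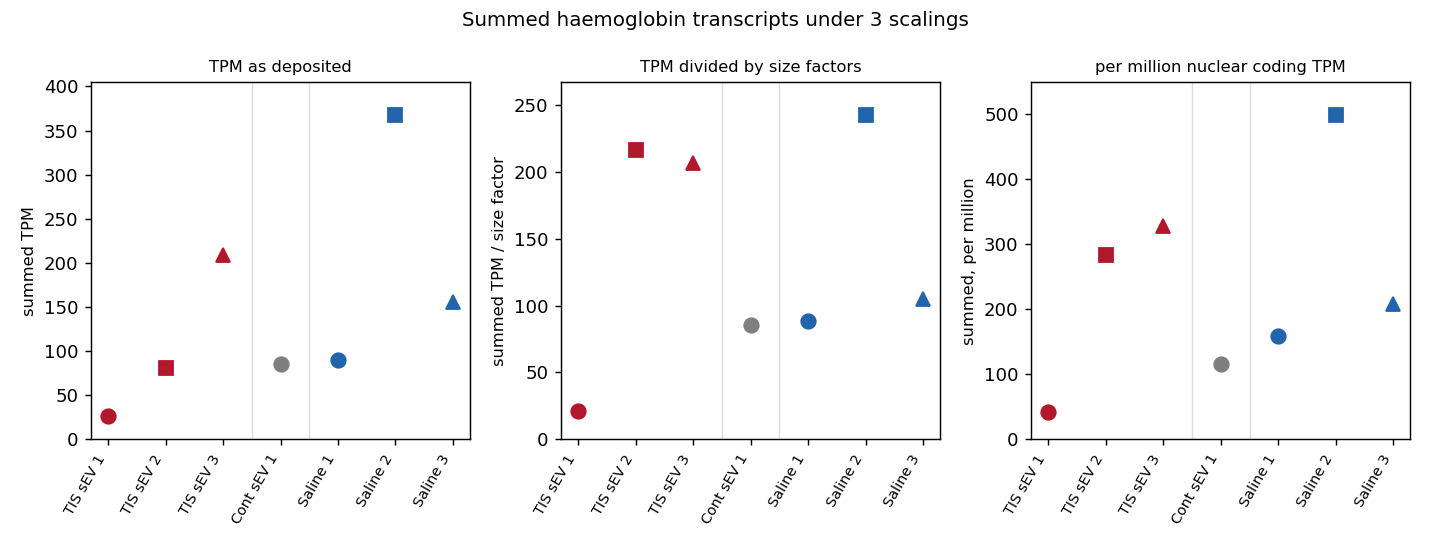
Sum of Hba-a1, Hba-a2, Hbb-bs and Hbb-bt in each library under 3 scalings (deposited TPM, TPM divided by size factors, and TPM scaled to a fixed total of nuclear protein-coding genes; linear axes from 0), with TIS sEV left, Cont sEV in the middle and Saline right. TIS sEV replicate 2 lies at 80.8 TPM as deposited and at 216 with size factors, and TIS sEV replicate 1 is the lowest library in each panel.

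Ratios between members do not depend on the scaling of a library. The alpha to beta ratio, (Hba-a1 + Hba-a2) over (Hbb-bs + Hbb-bt), was 1.22, 1.36 and 1.31 in the TIS sEV libraries, 1.05 in Cont sEV and 0.756, 0.648 and 1.03 in the Saline libraries. All 3 TIS sEV libraries lay above Cont sEV and all 3 Saline libraries, although the summed level overlapped. The mean was 1.30 ± 0.0719 with TIS sEV and 0.813 ± 0.199 with saline (SD, n = 3 each). This ratio was picked out after its values were seen and is given without a test. It rests on TPM per length of genes whose reference haplotype is not that of the strain, and the part of that in the ratio was not tested.

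Within the pairs, Hba-a2 stood at 1.80, 1.56 and 1.44 times Hba-a1 in the TIS sEV libraries, 1.49 times in Cont sEV and 1.60, 1.58 and 1.75 times in the Saline libraries. Hbb-bt made up 3.71%, 7.24% and 7.15% of beta-globin TPM in the TIS sEV libraries, 5.55% in Cont sEV and 5.26%, 4.92% and 3.76% in the Saline libraries. Both within-pair measures overlapped between groups. The ratio of Hbb-bs to Hba-a2, the leading gene of each pair, was 1.23, 1.12 and 1.20 in the TIS sEV libraries, 1.50 in Cont sEV and 2.04, 2.39 and 1.46 in the Saline libraries, with every TIS sEV library below all the others. Since Hbb-bs and Hba-a2 make up the larger part of the beta and alpha sums, it largely repeats the alpha to beta ratio, turned over. It is not a separate observation. This ratio, too, was singled out after its values were seen and has no test.

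**Figure D3:**
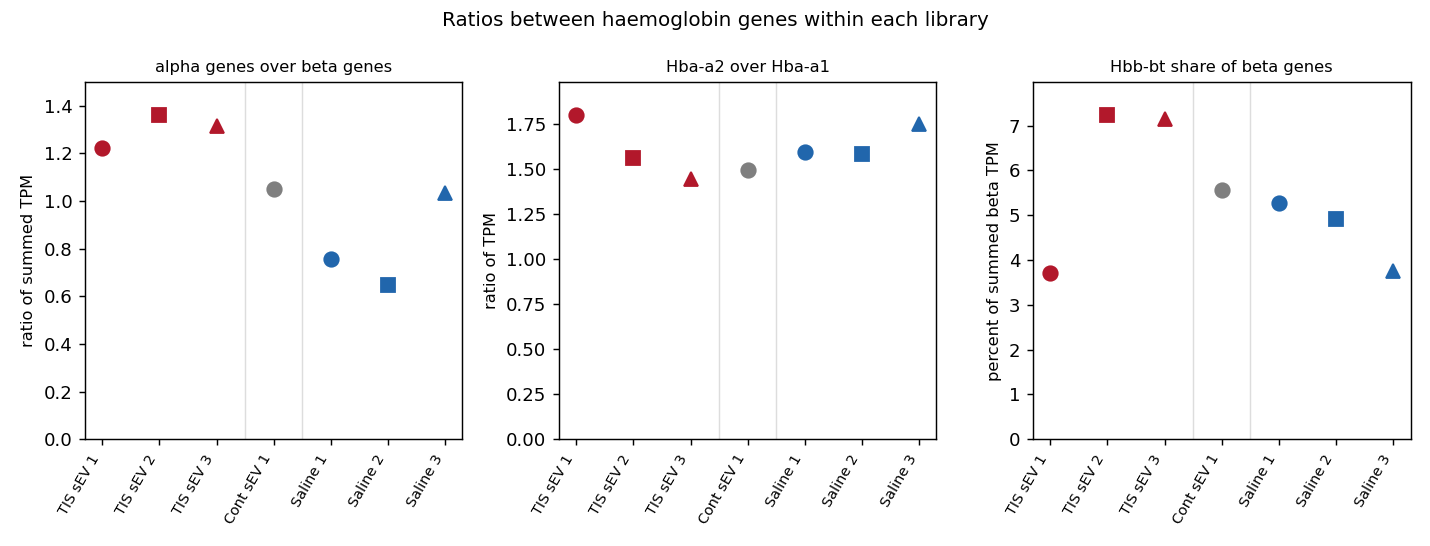
Ratios between members in each library, with TIS sEV left, Cont sEV in the middle and Saline right; each point is 1 library. The alpha to beta ratio lies at 1.22 to 1.36 with TIS sEV, at 1.05 with Cont sEV and at 0.648 to 1.03 with saline, and the ratios within each pair overlap.

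The globin members moved together over the 7 libraries. On the log2 scale Hba-a1 and Hba-a2 correlated at r = 0.996, and the other pairs of globin genes at 0.946 to 0.963. Alas2 correlated with the mean of the 4 at 0.442. These are descriptions over 7 libraries that share their scaling, and within each pair the genes also share reads.

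Other red cell genes were mostly absent. Of 9 embryonic, minor and other-haplotype globin genes, 7 were in the table. The other-haplotype genes of the list, Hbb-b1 and Hbb-b2, were not in it, so nothing was measured for them. Of the 7, 6 were at 0 in all libraries, and Hba-x, an embryonic alpha-type chain, reached 0.245 TPM in 1 Saline library. Of 16 genes for the red cell membrane and its skeleton, 4 were at 0 in every library and 12 stayed under 1 TPM throughout. Slc4a1, the anion exchanger band 3, read 0.0055, 0 and 0.025 TPM in the TIS sEV libraries, 0.018 TPM in Cont sEV and 0, 0.021 and 0 TPM in the Saline libraries. Band 3 RNA was thus at or near 0 in all 3 groups, with globin still readable.

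The 4 membrane genes that could be tested are also used outside red cells, among them Epb41, protein 4.1 of the membrane skeleton, at 10.2, 2.96 and 7.61 TPM with TIS sEV, 9.14 TPM with Cont sEV and 8.999, 12.3 and 14.7 TPM with saline. Gypc, a glycophorin that anchors that skeleton, and Dmtn, the actin-bundling dematin, did not pass either, at log2 differences of 0.20 and -0.63 in TIS sEV against Saline. Of the 4, 0 passed in limma and 1 had an unadjusted p under 0.05, where 1245 of all 12058 tested genes did. That gene was Add2, an adducin subunit of the membrane skeleton, at -1.91. The median of the 4 was -0.11 relative to the median gene.

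Of 8 regulators of red cell formation, 5 stayed under 1 TPM in every library. Klf1, the factor that drives adult globin transcription, read 0.126, 0 and 0.0994 TPM in the TIS sEV libraries, 0.213 TPM in Cont sEV and 0.200, 0.103 and 0.158 TPM in the Saline libraries. Gata1, the master factor of red cells and megakaryocytes, stayed at or under 0.250 TPM, and Epor, the erythropoietin receptor, at or under 0.320 TPM. The other 3 (Nfe2, Lmo2 and Zfpm1, which other blood cells use too) reached 1 TPM in at least 3 libraries. Lmo2 read 5.63, 6.25 and 8.05 TPM with TIS sEV, 4.52 TPM with Cont sEV and 5.28, 7.78 and 6.40 TPM with saline. Those 3 were tested and 0 passed in limma, none with an unadjusted p under 0.05, with log2 differences of -0.20, 0.031 and -0.64 in TIS sEV against Saline. Among 16 late erythroblast and reticulocyte genes, 15 were in the table, 3 were at 0 in all libraries and 10 were tested. Of those 10, 0 passed in limma and 1, Car2, had an unadjusted p under 0.05, where 1245 of all 12058 tested genes did. The median of the 10 was 0.40 relative to the median gene. Examples were Bpgm, which makes the haemoglobin ligand 2,3-bisphosphoglycerate, at 9.32, 3.41 and 8.89 TPM with TIS sEV, 6.22 TPM with Cont sEV and 6.68, 8.03 and 9.26 TPM with saline, and Bnip3l, which removes mitochondria from reticulocytes, at a log2 difference of -1.05. Car2, a carbonic anhydrase found in red cells and many other tissues, had a log2 difference of 0.86 (limma adjusted p = 0.476). Prdx2, also tested, stood at 307 to 1072 TPM, above the summed globin genes in every library. How much of the RNA of these 10 genes came from red cells was not tested.

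Haem synthesis was measurable through genes other than Alas2. Alas1, the housekeeping counterpart of Alas2, read 12.97, 3.37 and 10.7 TPM in the TIS sEV libraries, 9.73 TPM in Cont sEV and 7.71, 14.3 and 21.7 TPM in the Saline libraries, above Alas2 in every library. The list held enzymes and the transporters Slc25a37, Slc25a38 and Abcb10. All 11 genes of it were tested, 0 passed in limma and 0 had an unadjusted p under 0.05. Alad, the enzyme after the first step, had a log2 difference of -0.21. The list's median matched that of all genes, with 6 of 11 above it.

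Genes for clearing haemoglobin did not pass either. Cd163, the macrophage receptor that takes up haemoglobin bound to haptoglobin, read 18.9, 32.5 and 16.5 TPM in the TIS sEV libraries, 5.80 TPM in Cont sEV and 4.46, 17.1 and 2.60 TPM in the Saline libraries. TIS sEV replicates 1 and 2 lay above every Saline library and TIS sEV replicate 3 just under Saline replicate 2, and the log2 difference was 1.68 (SE 0.66, limma adjusted p = 0.419). Hp, haptoglobin itself, read 19.4, 29.3 and 15.9 TPM in the TIS sEV libraries, 13.1 TPM in Cont sEV and 12.7, 11.2 and 9.62 TPM in the Saline libraries. Its groups did not overlap, which held for 14.3% of all tested genes, and its log2 difference of 0.85 (SE 0.66, limma adjusted p = 0.498) did not pass. The groups of some other listed genes, Add2, Bnip3l and Car2 among them, did not overlap either. Lrp1, the receptor for haem bound to haemopexin, had 112, 6.79 and 151 TPM in the TIS sEV libraries, 92.7 TPM in Cont sEV and 142, 241 and 250 TPM in the Saline libraries, with a log2 difference of -2.01 (limma adjusted p = 0.163) in which TIS sEV replicate 2 was by far the lowest. Of the 9 genes of this list that were tested, 0 passed in limma, and the median of the 9 was 0.38 relative to the median gene. An unadjusted limma p under 0.05 was found for 3 of them (Cd163, Lrp1 and Flvcr1, a haem exporter) and for 1245 of all 12058 tested genes.

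Markers of the other cells that come with blood, or that line vessels, did not follow haemoglobin in step. Endothelial markers summed to 93.8, 19.2 and 218 TPM in the TIS sEV libraries, 127 TPM in Cont sEV and 79.4, 115 and 99.5 TPM in the Saline libraries. Haemoglobin per unit of endothelial TPM was 0.285, 4.203 and 0.958 in the TIS sEV libraries, 0.674 in Cont sEV and 1.14, 3.20 and 1.56 in the Saline libraries, so TIS sEV replicates 1 and 2 held the lowest and the highest value of all. Platelet and megakaryocyte markers, led by the platelet chemokine Pf4, summed to 147, 40.4 and 68.2 TPM with TIS sEV, 38.4 TPM with Cont sEV and 60.9, 70.8 and 39.6 TPM with saline. TIS sEV replicate 1 was highest for this sum and lowest for haemoglobin, with Pf4 alone at 141 TPM there. Pf4 made up most of the sum in every library, and its cell of origin was not tested. Of the 10 markers, 6 stayed under 1 TPM in every library. Of the rest, Ppbp and Itga2b were highest in Saline replicate 1, at 1.52 and 4.99 TPM, and Gp1bb in TIS sEV replicate 3, at 1.80 TPM.

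Neutrophil markers such as S100a8 and S100a9, the calprotectin subunits, summed to 1845, 987 and 1718 TPM with TIS sEV, 674 TPM with Cont sEV and 6130, 2012 and 1229 TPM with saline. Saline replicate 1, highest for these markers, was only in the middle for haemoglobin at 90.4 TPM. Tumour epithelial markers, the keratins Krt8, Krt18 and Krt7 among them, summed to 1859, 558 and 2436 TPM with TIS sEV, 2714 TPM with Cont sEV and 1460, 3767 and 4278 TPM with saline, so the labelled tumour tissue had its markers in every library. In TIS sEV against Saline, 0 of the 10 endothelial, 2 platelet, 10 neutrophil and 8 epithelial genes tested passed in limma. The only ones with an unadjusted limma p under 0.05 were 4 epithelial genes (Krt8, Krt18, Cdh1 and Cldn4), beside 1245 of all 12058 tested genes. The list medians relative to the median gene were 0.42, 0.69, 0.015 and -0.51 in that order of cell types. Over every list, 0 genes passed in TIS sEV against Saline. In Cont sEV against Saline, Ltf, the lactoferrin gene, listed here with the neutrophil markers, had a log2 difference of 3.13 (SE 0.73). It stood at 18.8 TPM in the Cont sEV library, against 3.27, 0.414 and 0.893 TPM in the Saline libraries. Its cell of origin was not tested. That comparison rests on 1 Cont sEV library, and most of the list lay the other way there, with S100a8 at -2.41, S100a9 at -2.26 and a list median of -0.95 relative to the median gene. Mmp9 of that list was higher, as Ltf was, at 2.35, while Csf3r, Retnlg and Mmp8 lay at -1.78, -1.86 and -1.79. The part of these cell types in the haemoglobin values was not tested.

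**Figure D4:**
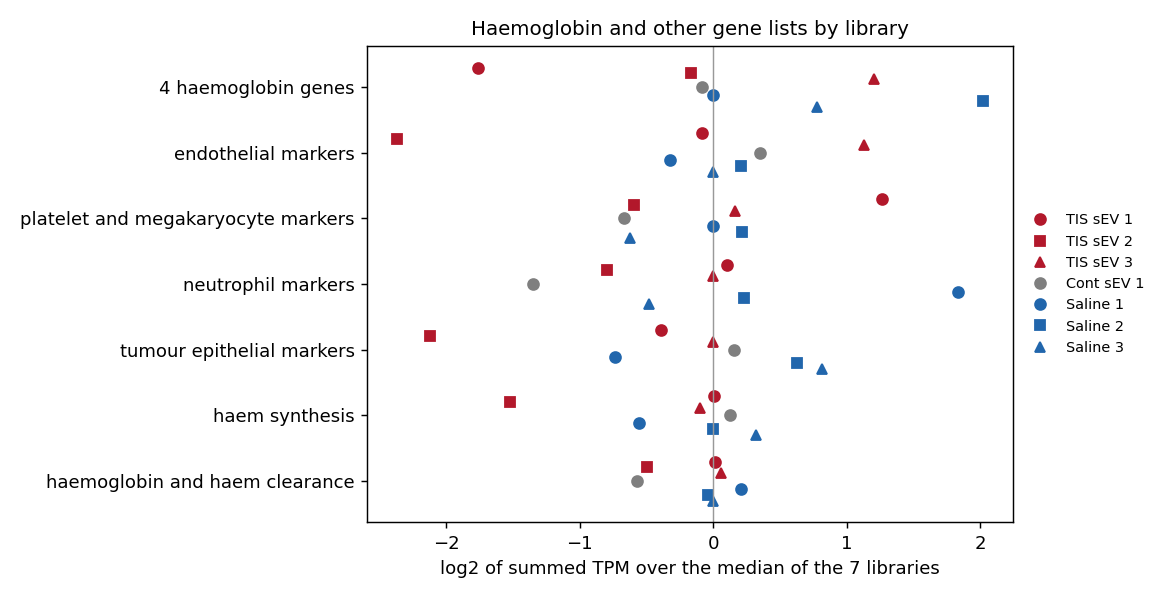
Summed TPM of the 4 haemoglobin genes and of 6 other gene lists in each library, as log2 of the sum over the median of the 7 libraries (x axis); each point is 1 library, with lists from top to bottom. Haemoglobin spans the widest range, from TIS sEV replicate 1 at 26.7 TPM to Saline replicate 2 at 368 TPM, while TIS sEV replicate 2 is the lowest library for endothelial, epithelial and haem synthesis genes.

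The genes whose pattern over the 7 libraries was most like that of the globin members were ranked by Pearson's r with the mean log2(TPM + 1) of the 4, among 11005 named tested genes. The median r was 0.216, and 5 genes exceeded 0.9. They were Trf (transferrin, the iron carrier of plasma) at 0.966, Clec4a3 (a C-type lectin receptor of myeloid cells) at 0.961, Apoc2 (a lipoprotein component) at 0.958, Apoe (a lipoprotein component also made by macrophages) at 0.938 and Lyz2 (the lysozyme of macrophages and neutrophils) at 0.909. Trf itself had 98.4, 162 and 233 TPM with TIS sEV, 170 TPM in Cont sEV and 135, 265 and 210 TPM in the Saline libraries. Apoe read 378, 1107 and 1329 TPM with TIS sEV, 805 TPM with Cont sEV and 590, 2118 and 1107 TPM with saline. Both had their lowest value in TIS sEV replicate 1 and their highest in Saline replicate 2, as the globin genes had.

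The next 5 were Clec4a2 (0.897), Ada (0.894), Treml2 (0.893), Tcn2 (0.864) and Cd38 (0.855). After division by size factors the 10 correlations lay between 0.650 for Ada and 0.917 for Apoe, with Trf at 0.841, Clec4a3 at 0.876, Apoc2 at 0.867 and Lyz2 at 0.916. With that scaling 4 of the 10 genes were again among the 10 most alike, and without TIS sEV replicate 2 it was 6 of the 10; both alternatives were chosen after seeing the data. These values describe likeness over 7 libraries and carry no p.

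**Figure D5:**
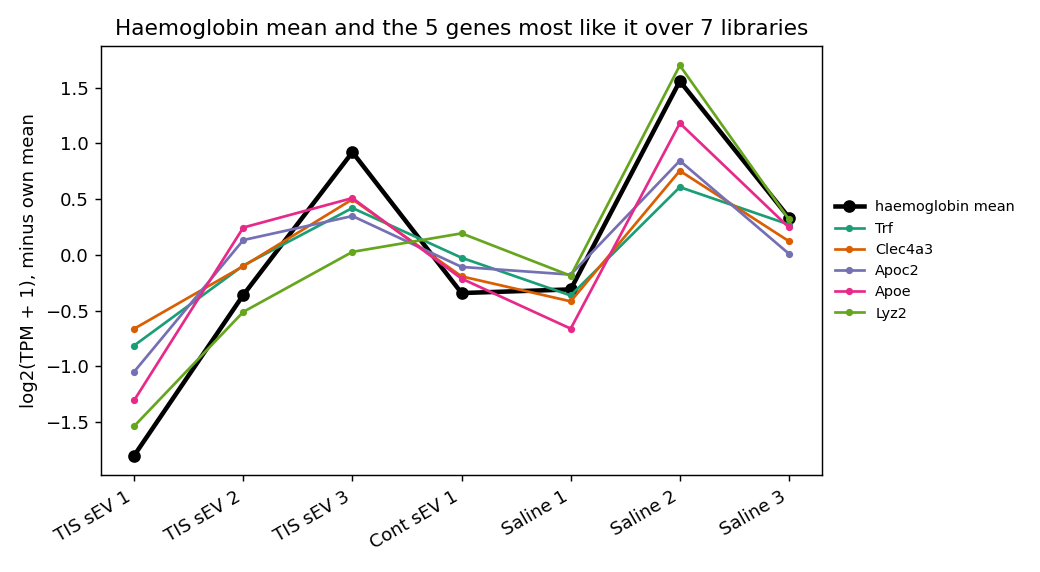
Mean log2(TPM + 1) of the 4 globin genes (black) and log2(TPM + 1) of the 5 genes most like it (colours), each minus its own mean over the 7 libraries (y axis); TIS sEV libraries stand left, then Cont sEV, then Saline, and lines only join values of 1 gene. All 6 lines are lowest in TIS sEV replicate 1 and highest in Saline replicate 2.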

How the data were processed

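Libraries of primary tumour RNA were deposited by the authors as 1 table of TPM values for 55487 genes in 7 columns. Salmon 1.4.0, DESeq2 1.28.0, Trim Galore 0.6.6, FastQC 0.11.9 and the build GRCm38.p6 are named in the submitters' processing notes. Annotation and strand setting were not given in the sources used here. TPM keeps no depth, so depth is unknown and counting intervals cannot be had. The columns named CE and NcE were read as Cont sEV and TIS sEV, which the labels do not spell out, and all vesicle values depend on that reading.

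Symbols came from GENCODE M21, which held 55141 of the identifiers. limma 3.58.1 in R 4.3.3 was run on log2(TPM + 1) for the 12058 genes that reached 1 TPM in 3 or more libraries, with 1 mean per group, an intensity trend and Benjamini-Hochberg adjustment over all of them. The pseudocount of 1 understates changes of low genes, Hbb-bt above all. With infinite prior degrees of freedom, a gene's error came from the trend over genes of like level. The script was tested on simulated data.

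The members and the 11 other lists, 123 entries in all, were chosen with earlier results of these data known. Named were all members, the first 3 tested genes of each list, list genes that passed, and the 10 genes most like the globin mean. List genes outside that rule were named after their values were seen. Some list genes are not reported here. Alternatives covered the pseudocount, the filter, the scaling, the trend, the replicate number and each library left out.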

Additional observations from a re-analysis of the deposited data

How the results depend on the processing

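The number of genes passing limma depended strongly on the processing. TIS sEV against Saline gave 62 genes as reported, 0 without a filter, with size factors or with scaling to nuclear coding genes (1230, 1761 and 1731 at an unadjusted p under 0.05), 9 with 1 TPM required in all 7 libraries, 39 without the trend and 6 to 332 with a library left out. TIS sEV against Cont sEV gave 27 genes, and in the same order 246, 1, 2, 0 (74 unadjusted), 12 and 7 to 85. Cont sEV against Saline gave 25, then 233, 1, 2, 0 (121 unadjusted), 16 and 6 to 174. Members passing stayed at 0 except for 1, Hbb-bs, without TIS sEV replicate 2, a range of 0 to 1. The log2 ratio of mean haemoglobin, TIS sEV over Saline, was -0.96 as deposited, 0.028 with size factors, -0.41 per coding TPM and -1.93 to -0.22 with a library left out.

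Several signs turned. For TIS sEV against Saline, Hba-a1 was at 0.020 with size factors and at -1.46 to 0.040 with a library left out. For TIS sEV against Cont sEV, size factors and coding scaling gave 0.33 and 0.53 for Hba-a1 and 0.052 and 0.27 for Hbb-bs, and a pseudocount of 0.1 gave -0.20 for Hbb-bt. With a library left out that comparison ran from -0.76 to 0.74 for Hba-a1, -0.63 to 0.75 for Hba-a2, -0.99 to 0.39 for Hbb-bs and -0.56 to 0.62 for Hbb-bt, lowest without TIS sEV replicate 3 and highest without TIS sEV replicate 1. The causes were not tested.

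Same-numbered TIS sEV and Saline libraries correlated at -0.382, -0.00849 and 0.0797, and differently numbered ones at -0.336 to 0.368. The labels state no pairing. These values are deviations from group means of few libraries, so they cannot decide whether the numbers pair the samples. With the replicate number as a block, 14, 5 and 9 genes passed in the 3 comparisons. TIS sEV against Cont sEV then gave -1.15 for Hba-a2 and -0.88 for Hbb-bt, and Cont sEV against Saline 0.53, 0.35 and 0.15 for Hba-a1, Hba-a2 and Hbb-bt. Unknown depth leaves the precision of values near 0, such as those of Alas2, unstated.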

Other observations

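Markers of marrow-type progenitors and immature blood cells, 8 genes with Myb, Cd34 and the basophil protease Mcpt8 among them, summed to 34.2, 13.9 and 29.7 TPM in the TIS sEV libraries, 46.9 TPM in Cont sEV and 13.2, 20.3 and 32.8 TPM in the Saline libraries. In TIS sEV against Saline, 0 of the 5 tested genes passed in limma and 0 had an unadjusted p under 0.05, and their median was 0.68 relative to the median gene. Mcpt8 alone made up much of the sum in several libraries, with 26.0, 4.90 and 7.04 TPM in the TIS sEV libraries, 35.1 TPM in Cont sEV and 3.53, 10.6 and 21.6 TPM in the Saline libraries.

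Genes for haemoglobin and haem clearance summed to 9007, 6304 and 9288 TPM in the TIS sEV libraries, 6013 TPM in Cont sEV and 10277, 8680 and 8911 TPM in the Saline libraries. The ferritin genes Fth1 and Ftl1, which store iron in most cells, made up nearly all of it, with Fth1 at 2602 to 6512 TPM and Ftl1 at 2586 to 5349 TPM over the 7 libraries. Single clearance genes varied far more, with Cd163 at 2.60 to 32.5 TPM and Lrp1 at 6.79 to 250.4 TPM.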
